A study of Mus musculus with 12 samples.

Results

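The Gadd45, Btg and Ier genes are 8 stress- and activity-response genes, Gadd45a, Gadd45b, Gadd45g, Btg1, Btg2, Ier2, Ier3 and Ier5, among 20752 genes that have a probe set of their own symbol in the deposited comparison table. The members were chosen by symbol as known families, with their values on these arrays already known. Each is represented by 1 probe set, selected on the highest mean RMA value over the 6 arrays. They are measured by 15 of 45037 probe sets, between 1 and 3 for a gene. RNA came from the basolateral amygdala (BLA), where sensory cues acquire good or bad value. Both groups carried PABPC1-FLAG, a poly(A)-tail-binding protein with a tag, driven there by the activity-dependent fos promoter. The RNA measured was what came down with an antibody to the tag. The shock group received footshocks and the female group was exposed to a female mouse, and each group has 3 arrays. The design note gives 2 mice per sample and 3 mice per group. With 3 arrays a group, these numbers hold together only if arrays share mice. Which mice went to which array is not given, so this is not settled. Every test below measures the spread between arrays and treats them as independent. The sources used here do not give strain, age, sex or the time between exposure and collection. Each array was deposited both as RMA values (log2) and as MAS5 intensities (linear), which are 2 processings of the same 6 scans and not further replicates.

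GADD45 proteins are small acidic nuclear proteins that bind and activate the kinase MAP3K4 upstream of p38 and JNK, bind PCNA and p21, and take part in the removal of DNA methylation. In neurons, Gadd45b is known as an activity-induced gene linked to demethylation at neurotrophic gene promoters. BTG proteins recruit the CCR4-NOT deadenylase, which shortens poly(A) tails, and BTG2 is known to contact PABPC1 itself. IER genes are immediate-early genes, switched on without new protein synthesis: IER2 and IER5 are related nuclear proteins, IER5 being known to act with the heat shock factor HSF1, and IER3 is an unrelated regulator of survival and ERK signalling.

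Differences are given as shock minus female on the log2 scale, so that a negative value is higher in female. They were fitted with limma across 27022 probe sets whose mean RMA value over the 6 arrays lay above 6.31, and a probe set was called at a Benjamini-Hochberg adjusted p under 0.05 over all of them. The mean that selected the representatives is given only as a description, and levels of different probe sets are not compared. Of the 8 genes 7 were tested, Ier2 lying below the filter, and of the 15 probe sets 13. By representative, 2 of the 7 genes were called (28.6%), Btg1 higher in shock and Gadd45g higher in female, where 20.0% of all 13203 tested genes were called, 10.6% towards shock and 9.40% towards female. By probe set, 4 of the 13 were called (30.8%), 1 towards shock and 3 towards female, against 20.8% of all tested probe sets, 9.31% towards shock and 11.5% towards female. The groups did not overlap at 6 of the 13, 2 higher in shock and 4 in female, where 47.7% of all tested probe sets had no overlap (24.6% and 23.1%). These shares are those of a small list beside a background in which many transcripts differ. The median difference was -0.08 over the 13 probe sets and 0.02 over all tested probe sets.

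**Figure D1:**
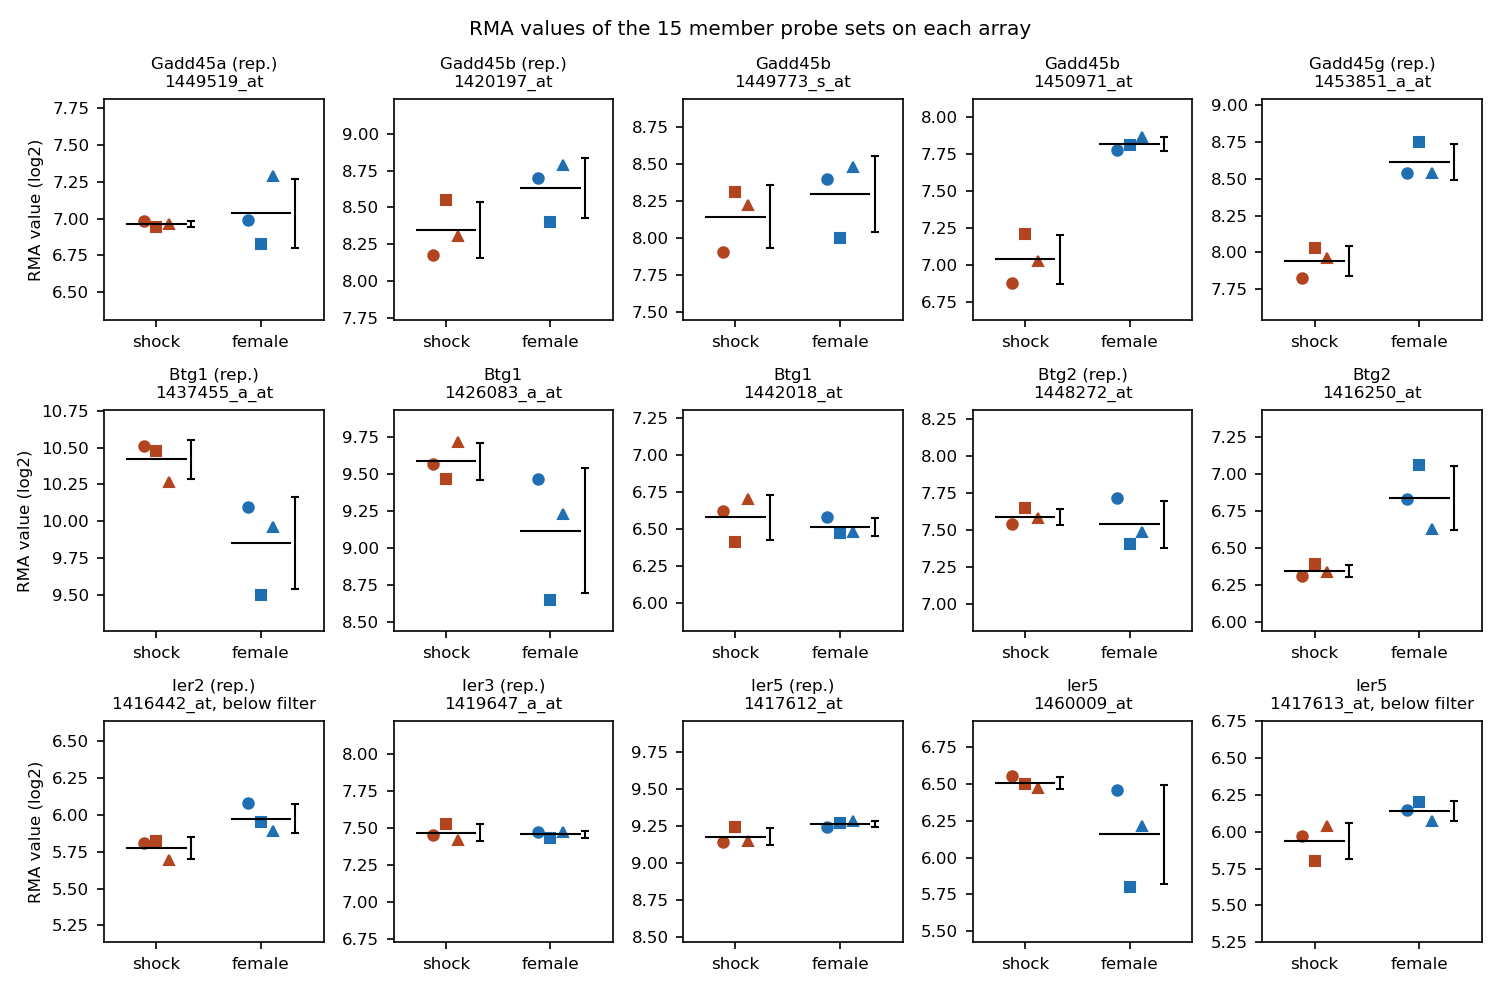
RMA values (log2, vertical axis) of the 15 probe sets on the 3 shock and 3 female arrays. Circles, squares and triangles are replicates 1, 2 and 3, lines are group means and bars are ± 1 SD, and each panel spans the same 1.5 log2 units. Gadd45b 1450971_at and Gadd45g stand lower on every shock array than on any female array, with group means of 7.04 against 7.82 and 7.94 against 8.61, and Btg1 1437455_a_at stands higher (10.42 against 9.85).

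Several properties of the arrays moved with the groups. The arrays of a pair correlated across tested probe sets at 0.991 to 0.993 within shock, at 0.974 to 0.994 within female and at 0.936 to 0.985 between groups, and female replicate 2 had the lowest weight (0.20) when arrays were weighted by their fit. The 5' to 3' signal, the median, over 2784 genes, of a gene's farthest 5' probe set less its farthest 3' one, averaged -0.95 ± 0.07 over the shock arrays and -0.67 ± 0.16 over the female arrays (log2, SD, n = 3 each). The groups did not overlap and the 2-sided exact permutation p was 0.1, the smallest that 3 against 3 arrays allow. Shock arrays thus gave relatively less signal far from the 3' end, and in these genes the shock minus female difference was a median of 0.29 lower at the 5' probe set. The share of tested genes called was 1.17%, 4.96% and 4.48% without shock replicates 1, 2 and 3, and 24.6%, 20.2% and 12.6% without female replicates 1, 2 and 3. It was 32.1% with array weights and 0% with a covariate for the 5' to 3' signal. All 16 neuronal marker genes of a list passed the filter, as did 12 of 12 astrocyte, 14 of 14 oligodendrocyte, 12 of 14 microglial and 11 of 15 endothelial and mural markers that had a probe set, and 3 of 9 blood markers. Among the neuronal markers 7 were called higher in female and 1 in shock (Gad1, 0.39), or 50% against 20.0% of all genes. The list as a whole had no common direction, as 8 of the 16 differences lay below 0 and 8 above, with a median of 0. The 7 called towards female became 0, 3 and 2 without shock replicates 1, 2 and 3, 3 without female replicate 3, 1 on MAS5 values and 0 with the covariate. The summed level of neuronal markers (log2 of summed linear RMA values) ran from 15.90 to 15.96 in shock and from 15.98 to 16.02 in female. It ran from 14.55 to 14.80 against 14.76 to 15.14 for oligodendrocytes, where 4 of 14 were higher in female, and from 12.01 to 12.20 against 12.03 to 12.42 for microglia, where 4 of 12 were. For endothelial and mural cells it ran from 11.16 to 11.30 against 11.37 to 11.38 with 3 of 11 higher in female, and for astrocytes from 14.15 to 14.25 against 14.09 to 14.40 with 2 of 12. The oligodendrocyte, microglial, endothelial and mural, and astrocyte counts each became 0 without any 1 shock array, on MAS5 values and with the covariate. Of all tested genes 9.40% were called towards female. In the 3 tested blood markers the summed level ran from 9.29 to 9.41 against 8.80 to 9.09. Of these, the leukocyte gene Ptprc was higher in shock (1.36), but was not called on MAS5 values (adjusted p = 0.139). Hbb-b2 (-0.40) and Lyz2 (-0.19) lay towards female without passing. The part of these markers in the results below was not tested. In pulled-down RNA, fewer cells of a type, less RNA per cell and less RNA captured cannot be told apart.

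Within the Gadd45 family, Gadd45g and 1 of the 3 probe sets of Gadd45b were higher in female, and Gadd45a did not pass the test. Gadd45g, which is known as a cytokine- and activity-responsive member of the family, was 1.59-fold higher in female. Its probe set (1453851_a_at, chromosome 13, positions 51846677 to 51848468, plus strand, in the deposited table, whose genome build the sources used here do not name) had RMA values of 7.83, 8.03 and 7.96 in shock and 8.54, 8.75 and 8.54 in female. Every female array lay above every shock array, and the gap between the closest arrays was larger than the range within either group. The limma difference was -0.67 (standard error 0.11, adjusted p = 0.0068), and 2.48% of all tested genes had a difference as far or farther towards female. Without shock replicate 1 the difference was -0.61 and the call was lost (adjusted p = 0.0521), while the other 5 fits that left out an array kept it, with differences from -0.71 to -0.60. The MAS5 intensities were 223, 402 and 295 in shock and 500, 609 and 499 in female. They did not overlap either, and their difference was -0.80 on the log2(value + 16) scale with an adjusted p of 0.0793, where 2.01% of tested probe sets were called, 0.122% towards shock and 1.89% towards female. With a covariate for the 5' to 3' signal the difference was -0.43 with a standard error of 0.14 (adjusted p = 0.285). That fit called 1 of 27022 probe sets, and in this design the signal and the group cannot be told apart. Gadd45g values also followed the signal inside each group, with a Pearson r of 0.96 within the 3 shock arrays, 1 (rounded) within the 3 female arrays and 0.93 over all 6. What lies behind this was not tested.

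Gadd45b has 3 probe sets, and the answer differed between them. The probe set whose listed interval is the longest (1450971_at, chromosome 10, positions 80930073 to 80932204, plus strand) was 1.72-fold higher in female. Its RMA values were 6.88, 7.21 and 7.03 in shock and 7.78, 7.81 and 7.87 in female. The 3 female arrays lay close together and well above all shock arrays. The difference was -0.78 with a standard error of 0.11 (adjusted p = 0.00517), and 1.87% of all tested probe sets lay as far or farther towards female. It was called in all 6 fits that left out an array, with differences from -0.87 to -0.70 and its weakest adjusted p, 0.0468, without shock replicate 1. MAS5 intensities were 79.1, 84.8 and 77.8 in shock and 168, 203 and 201 in female. This was the single member probe set called on MAS5 values, with a difference of -1.10, a standard error of 0.14 and an adjusted p of 0.0221. With the 5' to 3' covariate the difference was -0.70 with a standard error of 0.17 (adjusted p = 0.161).

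The other Gadd45b probe sets cover a shared short interval at the end of the gene, positions 80931921 to 80932204. The representative (1420197_at) is listed on the minus strand, opposite to the gene, and whether it measures the Gadd45b mRNA was not tested. It had values of 8.18, 8.55 and 8.31 in shock and 8.70, 8.40 and 8.79 in female, which overlap, and a difference of -0.28 (adjusted p = 0.148). Without female replicate 2 that difference was -0.40 and was called (adjusted p = 0.0331). The plus-strand probe set of the same interval (1449773_s_at) had values of 7.90, 8.31 and 8.22 in shock and 8.40, 8.0 and 8.48 in female. It also overlapped between groups and did not pass, with a difference of -0.15 and an adjusted p of 0.486. A test of the difference between probe sets, run over 10699 pairs of a probe set and its gene's representative, gave -0.50 for 1450971_at against the representative (standard error 0.13, adjusted p = 0.0272). In that test 26.4% of all pairs were called and 19.0% in this direction, but 0 of all pairs, this one included, without any 1 shock array. On MAS5 values the same pair differed by -0.84 and was not called (adjusted p = 0.0918).

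Gadd45a, the family member best known as a p53 target, had a single probe set (1449519_at, chromosome 6, positions 67035095 to 67037398, minus strand). Its values were 6.98, 6.94 and 6.96 in shock and 6.99, 6.83 and 7.29 in female. The shock arrays were nearly equal and lay inside the female range, and the difference of -0.08 did not pass (adjusted p = 0.661, 95% interval -0.36 to 0.20). Female replicate 3 set the direction, since the difference was 0.05 without it. On MAS5 values the difference was -0.30 (adjusted p = 0.316). A difference between the family members was not tested.

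The promoters of Gadd45b and Gadd45g, the Gadd45 genes with a probe set called higher in female, are shown here. They run from 250 bases before to 50 bases after the start of the gene in RefSeq, build GRCm38.p6, on the gene's strand and 5' to 3', at chr10:80929841-80930140 (plus strand) for Gadd45b and chr13:51846425-51846724 (plus strand) for Gadd45g. Capitals mark the E-box CACGTG, the CRE TGACGTCA, its half-site TGACG (which lies inside the CRE) and the AP-1 site TGANTCA, searched on both strands.
Gadd45b: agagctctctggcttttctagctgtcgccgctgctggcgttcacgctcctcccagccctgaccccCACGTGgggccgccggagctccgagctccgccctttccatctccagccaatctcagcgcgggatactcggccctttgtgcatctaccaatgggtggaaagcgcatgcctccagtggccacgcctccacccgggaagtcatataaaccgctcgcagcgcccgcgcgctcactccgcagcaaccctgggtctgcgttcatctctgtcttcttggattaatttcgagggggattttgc
Gadd45g: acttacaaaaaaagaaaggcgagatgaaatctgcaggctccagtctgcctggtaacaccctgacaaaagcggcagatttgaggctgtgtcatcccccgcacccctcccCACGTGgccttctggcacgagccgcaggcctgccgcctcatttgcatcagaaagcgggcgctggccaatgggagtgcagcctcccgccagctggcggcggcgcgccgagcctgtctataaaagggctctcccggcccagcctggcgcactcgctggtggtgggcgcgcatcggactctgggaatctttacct
Each of these promoters held 1 E-box, starting at position -185 from the start in Gadd45b and at -142 in Gadd45g, and no CRE, half-site or AP-1 site. An E-box was in these 2 of the 7 members with a promoter entry. Btg2, which also had a probe set called higher in female and is shown further below, held none. An E-box was in 7.15% of 32851 promoters of the same length, a CRE in 1.79%, a half-site in 20.8% and an AP-1 site in 7.81%. The TATA box TATAAA was in 3 of the 7 members with a promoter entry (Gadd45b, Gadd45g and Btg1) and in 13.6% of all promoters. The CCAAT box CCAAT was in all 7 and in 37.4% of all, and the CArG box in none of the 7 and in 1.63% of all. These matches describe letters only. Ier2 had no promoter entry.

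Both Btg genes had 1 called probe set, in opposite directions, and a difference between the genes was not tested. Btg1, which is known for holding lymphocytes and neural stem cells in quiescence, was 1.48-fold higher in shock at its representative, and Btg2, a p53- and activity-induced member, was 1.40-fold higher in female at 1416250_at and not called at its representative. The Btg1 representative (1437455_a_at) had RMA values of 10.51, 10.48 and 10.27 in shock and 10.10, 9.50 and 9.96 in female. All shock arrays lay above all female arrays, and female replicate 2 was the lowest. The difference was 0.57 with a standard error of 0.15 (adjusted p = 0.0318). The deposited table places this probe set on chromosome X (positions 15366173 to 15366482, plus strand), away from the other Btg1 probe sets on chromosome 10, so that a copy elsewhere in the genome cannot be set apart from Btg1. The call was lost without shock replicate 1 (0.52, adjusted p = 0.128), 2 (0.54, 0.0961) or 3 (0.64, 0.0683) and without female replicate 3 (0.62, 0.0501). It was kept without female replicate 1 (0.69) and without female replicate 2 (0.39, adjusted p = 0.0249). On MAS5 values it was at 0.33 with an adjusted p of 0.282, and shock replicate 1 (1888) lay below female replicate 1 (2050). With the 5' to 3' covariate the difference was 0.12.

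A second Btg1 probe set, on chromosome 10 (1426083_a_at, positions 96617020 to 96619608, plus strand), gave 9.57, 9.47 and 9.72 in shock and 9.47, 8.65 and 9.23 in female. Shock replicate 2 and female replicate 1 were level, and the difference of 0.47 did not pass (standard error 0.19, adjusted p = 0.0916), though it did without female replicate 1 (0.65, adjusted p = 0.0233). It was at 0.24 without female replicate 2 (adjusted p = 0.152) and turned to -0.17 under the 5' to 3' covariate (adjusted p = 0.775). The remaining Btg1 probe set (1442018_at, positions 96622184 to 96622809), whose listed 3' end lies 3201 bases further 3', had a difference of 0.07 with overlapping groups (6.62, 6.41 and 6.70 against 6.58, 6.47 and 6.48; adjusted p = 0.662). It was at -0.20 on MAS5 values and -0.05 with the covariate. Neither of them was called as different from the representative in the test of pairs (-0.10, adjusted p = 0.632, and -0.50, adjusted p = 0.0615).

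Both Btg2 probe sets are listed at the same positions (chromosome 1, 134075320 to 134079117, minus strand), so their place along the transcript cannot be read from the files. The probe set 1416250_at had RMA values of 6.31, 6.39 and 6.34 in shock and 6.83, 7.06 and 6.63 in female. The shock arrays were close together and below every female array. Its difference was -0.49 with a standard error of 0.12 (adjusted p = 0.0249). It was not called without shock replicate 1 (-0.47, adjusted p = 0.103), 2 (-0.51, 0.0681) or 3 (-0.48, 0.0830), and was at -0.18 with the 5' to 3' covariate. The representative (1448272_at) had 7.54, 7.65 and 7.58 in shock and 7.72, 7.41 and 7.49 in female, a difference of 0.05 with overlap (adjusted p = 0.767). The 2 probe sets differed from each other by -0.54 (standard error 0.16, adjusted p = 0.0372), a call lost without any 1 shock array. On MAS5 values they were not called as different: there both lay towards female, at -0.44 for 1416250_at (adjusted p = 0.277) and -0.52 for the representative (adjusted p = 0.137), and they differed by 0.08 (adjusted p = 0.842). The representative's MAS5 intensities were 182, 252 and 161 in shock and 298, 289 and 275 in female, with no overlap, so the direction of Btg2 at this probe set turned with the processing.

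The Btg promoters are shown for the CRE, the site through which cyclic AMP and calcium act on activity-induced genes. They lie at chr10:96616751-96617050 (plus strand) for Btg1 and chr1:134079106-134079405 (minus strand) for Btg2, from the same source and with the same capitals.
Btg1: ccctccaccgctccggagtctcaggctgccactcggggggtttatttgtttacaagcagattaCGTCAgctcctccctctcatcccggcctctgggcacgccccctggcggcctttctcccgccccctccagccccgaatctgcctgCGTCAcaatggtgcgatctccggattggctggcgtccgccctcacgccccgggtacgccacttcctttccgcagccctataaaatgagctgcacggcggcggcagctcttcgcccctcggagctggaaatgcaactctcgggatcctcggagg
Btg2: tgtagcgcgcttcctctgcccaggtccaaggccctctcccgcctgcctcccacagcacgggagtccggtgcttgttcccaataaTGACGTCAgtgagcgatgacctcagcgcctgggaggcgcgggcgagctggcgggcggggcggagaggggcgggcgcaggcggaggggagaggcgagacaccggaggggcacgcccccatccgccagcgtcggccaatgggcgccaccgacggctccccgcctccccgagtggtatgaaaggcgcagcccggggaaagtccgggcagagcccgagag
Btg2 was the 1 member of 7 with the full CRE, starting at -166. Btg1 held 2 half-sites on the minus strand, starting at -187 and -103. The other 5 members had neither.

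Of the Ier genes, Ier3 and Ier5 did not pass on RMA values and Ier2 was not tested, and Ier3 differed between the processings. Ier3 (1419647_a_at, chromosome 17, positions 35821696 to 35822911, plus strand) had RMA values of 7.45, 7.53 and 7.42 in shock and 7.47, 7.43 and 7.47 in female. All 6 arrays lay within a narrow range, and the difference was 0.01 (standard error 0.09, adjusted p = 0.923, 95% interval -0.19 to 0.22). Its MAS5 intensities were 213, 211 and 171 in shock and 334, 368 and 299 in female. These did not overlap, and the difference of -0.71 (standard error 0.15) had an adjusted p of 0.0500012, just above the threshold. In the authors' deposited table the fold of female over shock was 1.01 for the RMA values and 1.57 for the MAS5 values (FDR 0.832 and 0.257).

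**Figure D2:**
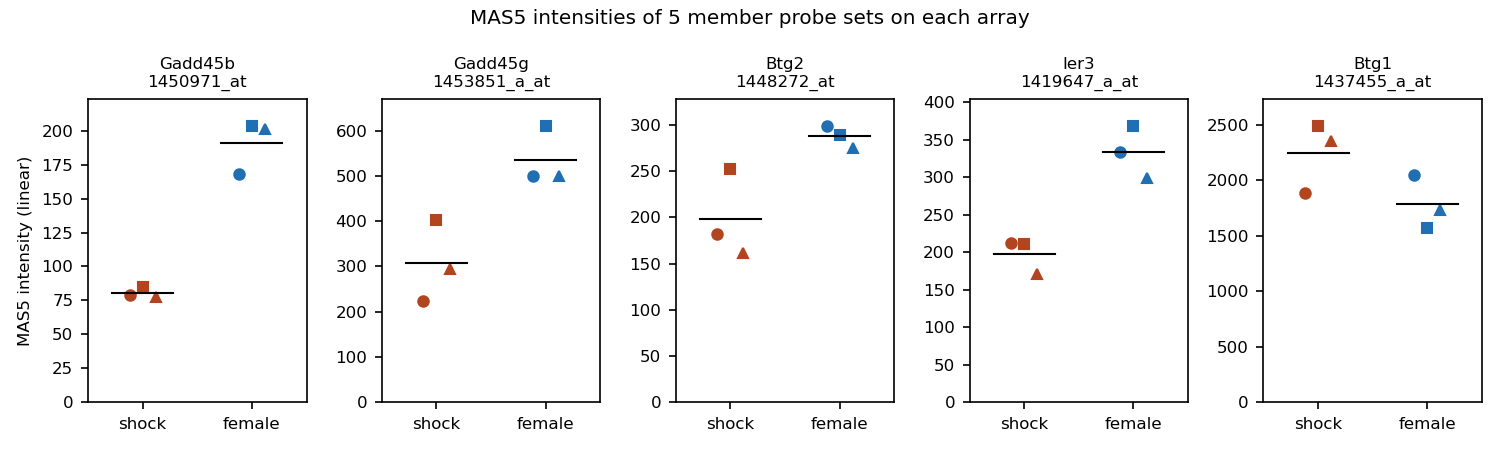
MAS5 intensities (linear scale from 0, vertical axis) of 5 member probe sets on the 3 shock and 3 female arrays, with circles, squares and triangles for replicates 1, 2 and 3 and lines for group means. Gadd45b 1450971_at, Gadd45g, Btg2 1448272_at and Ier3 do not overlap between groups, as with Gadd45b at 77.8 to 84.8 in shock and 168 to 203 in female, and Btg1 does overlap.

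Ier5 (1417612_at, chromosome 1, positions 155097014 to 155099633, minus strand) had RMA values of 9.14, 9.24 and 9.15 in shock and 9.24, 9.27 and 9.28 in female. The groups met at 9.24 without overlap, and the difference of -0.09 did not pass (adjusted p = 0.513, 95% interval -0.29 to 0.12). A probe set with its 3' end 648 bases further 3' (1460009_at, positions 155096366 to 155097035) had 6.55, 6.50 and 6.47 in shock and 6.46, 5.80 and 6.21 in female, and lay the other way at 0.36 (adjusted p = 0.112). It was called without female replicate 1 (0.51, adjusted p = 0.0283) and was at 0.18 without female replicate 2 and -0.11 with the covariate. The 2 probe sets were not called as different from each other (0.44, adjusted p = 0.0789), and on MAS5 values the second was at -0.02. The third Ier5 probe set (1417613_at) lay below the filter, with 5.97, 5.80 and 6.04 in shock and 6.15, 6.20 and 6.07 in female.

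Ier2 (1416442_at, chromosome 8, positions 84661332 to 84662842, minus strand; mean 5.87) lay below the filter and was not tested. Its RMA values were 5.81, 5.82 and 5.69 in shock and 6.08, 5.95 and 5.89 in female. Female arrays were all slightly higher, by 0.20 on average. Fitted without a filter, the difference had a standard error of 0.10 and an adjusted p of 0.201, where 10.9% of all 45037 probe sets were called. MAS5 intensities overlapped, with 46.7, 58.7 and 62.8 in shock and 81.8, 70.8 and 49.6 in female.

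**Figure D3:**
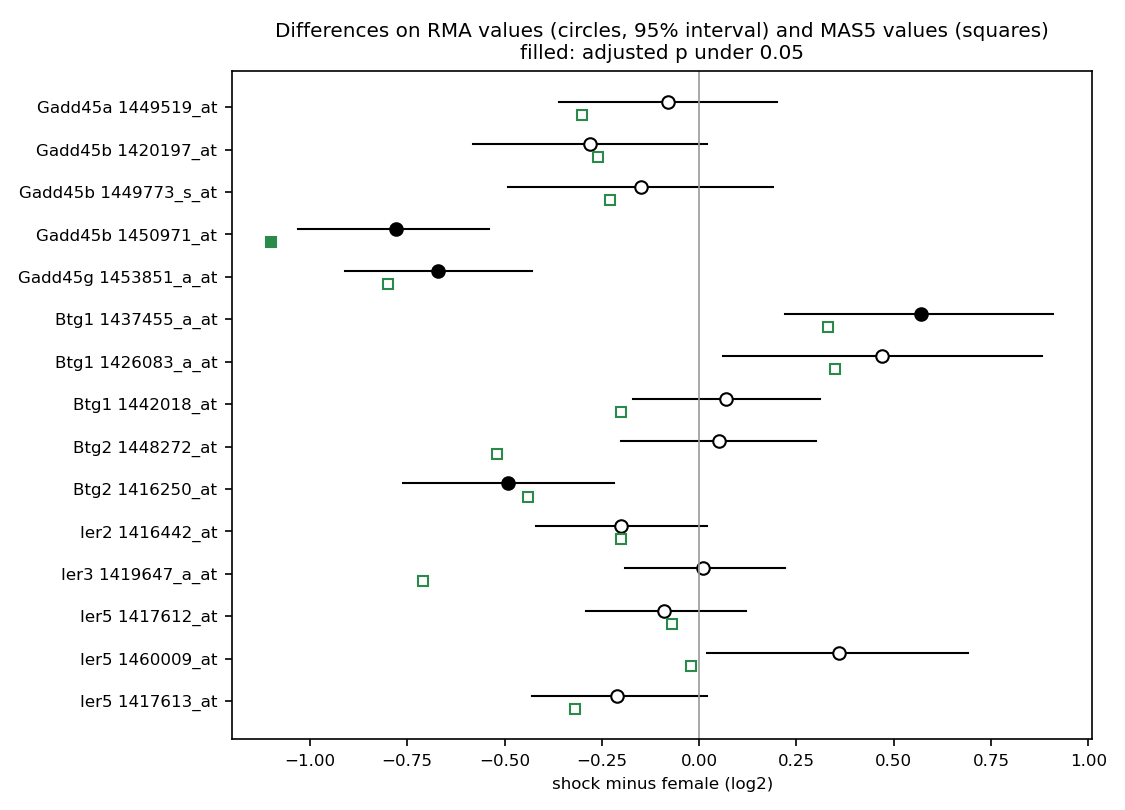
Shock minus female differences (log2, horizontal axis) of the 15 member probe sets on RMA values (circles with limma's 95% interval; for the 2 below the filter from the fit without one) and on log2(MAS5 + 16) values (squares). Filled symbols passed the adjusted p threshold. Gadd45b 1450971_at is filled in both (-0.78 and -1.10), and Btg2 1448272_at and Ier3 lie near 0 on RMA values but at -0.52 and -0.71 on MAS5 values.

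Across the 13 tested probe sets 7 lay below 0 on RMA values and 11 on MAS5 values, with medians of -0.08 and -0.26, beside 0.02 and -0.05 over all tested probe sets. MAS5 values did not overlap at 5 of the 13, all higher in female, where 28.9% of all tested probe sets did not overlap, 17.6% with female and 11.3% with shock higher. Both processings use the same scans, so their match is no replicate. In the authors' deposited table, the RMA fold of female over shock was 1.72 for Gadd45b 1450971_at and 1.5 for Gadd45g, each with an FDR of 0.127. It was -1.45 for the Btg1 representative, which is higher in shock in that notation, with an FDR of 0.219.

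**Figure D4:**
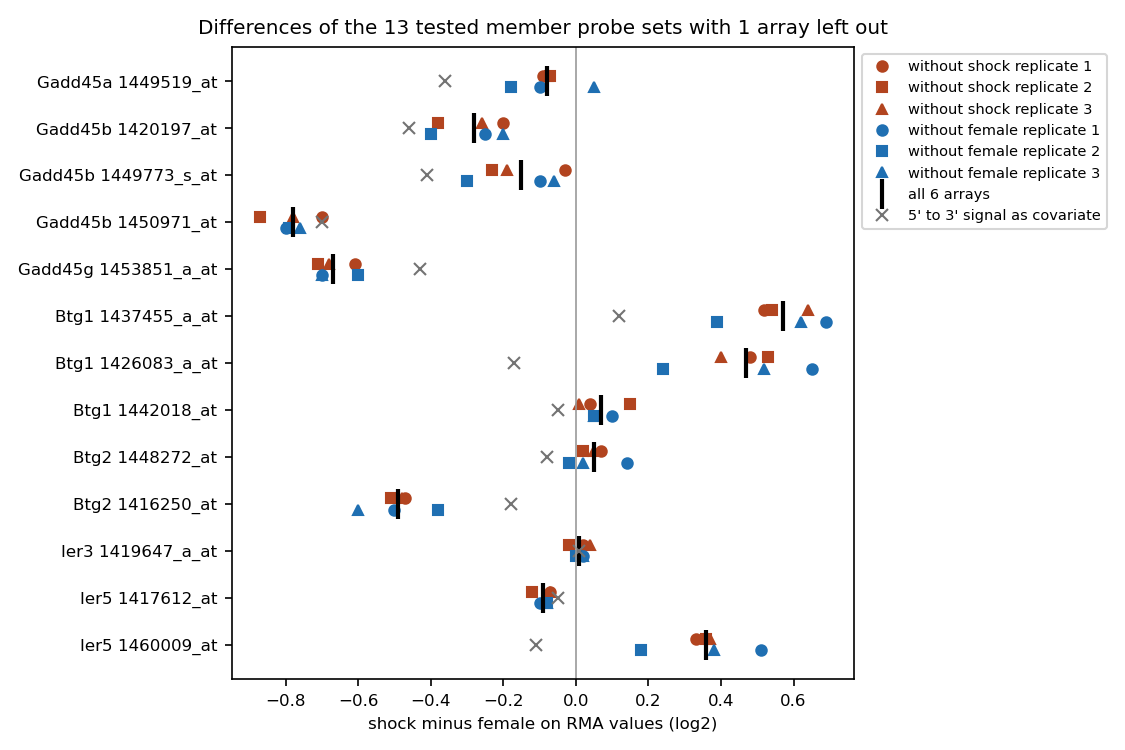
Shock minus female differences on RMA values (log2, horizontal axis) of the 13 tested member probe sets with all 6 arrays (bars), with 1 array left out (coloured symbols) and with a covariate for the 5' to 3' signal (crosses). Gadd45b 1450971_at stays between -0.87 and -0.70 throughout, whereas Btg1 1437455_a_at runs from 0.39 to 0.69 with an array left out and is at 0.12 with the covariate.

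Over the 6 arrays, the profile of Gadd45g was most like those of Zim3 (Pearson r = 0.998) and Lrrc4b (0.998). Lrrc4b was called higher in female with a difference of -1.18, whereas Zim3 was at -0.17 and did not pass (adjusted p = 0.186). Btg1 was most like Spice1 (0.999) and Chmp1b (0.997), the Gadd45b representative like Nfkbib (0.991) and Qpctl (0.987), and Ier5 like Slc22a12 (0.990) and Msantd3 (0.990). For Ier2 they were Utf1 (0.991) and Rpp40 (0.982), for Btg2 Pgm1 (0.969) and Hsp90aa1 (0.956), and for Ier3 Abca8b (0.960) and Oaz1 (0.947). An r over 0.9 was reached by 10.5% of 11544 genes for Gadd45g and 17.0% for Btg1. It was reached by 1.59% for Ier5, 0.546% for the Gadd45b representative, 0.260% for Ier2 (of 11545 genes), 0.173% for Btg2 and 0.0953% for Ier3.

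Of the genes known to work with these proteins, 155 in 7 lists were tested, of which 15 were higher in shock and 13 in female, or 18.1% against 20.0% of all genes. Their median difference was 0.14, and that of all tested genes 0.06. The counts in shock and female were 0 and 2 without shock replicate 1 (Bax and Per1 in female), 1 and 6 without shock replicate 2, and 0 and 5 without shock replicate 3. On MAS5 values they were 0 and 4. Without female replicate 2 the medians of the p53, Ier and rapid activity-response lists turned to -0.06, -0.01 and -0.06. With the 5' to 3' covariate no gene of the lists was called (0 and 0). The medians of 6 of the 7 lists, all but the p38 and JNK cascade (0.07), were then below 0, from -0.17 to -0.06. Those of the 6 cell marker lists were below 0 as well, from -0.15 to -0.01. The median of all tested genes with the covariate, or without female replicate 2, was not computed, so these shifts cannot be called particular to the lists. Counts of the single lists below stand beside 10.6% of all tested genes called towards shock and 9.40% towards female.

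Among 13 Gadd45 partners and demethylation enzymes, 1 was higher in shock and 2 in female, with a median of 0.26 (0.13 without female replicate 2). The MAP kinase kinase kinase gene Map3k4, whose product GADD45 proteins activate, was 0.37 higher in shock (adjusted p = 0.0417), with values of 9.55, 9.68 and 9.61 against 9.22, 9.10 and 9.41. Tet3, which encodes a methylcytosine dioxygenase, was at -0.50 (adjusted p = 0.0160), and Gadd45gip1, which encodes a GADD45-interacting mitochondrial ribosome protein, at -0.46 (adjusted p = 0.0216), both higher in female. In the p38 and JNK cascade, 2 of 20 genes were higher in shock (Map3k4 and the stress kinase gene Map3k5, 0.42) and 1 higher in female (Map3k11, -0.42). None of these 5 genes was called when any 1 shock array was left out.

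Of 22 tested genes of p53 and its targets, 1 was higher in shock and 4 in female, with a median of 0.08. The genes higher in female were the pro-apoptotic Bax (-0.75, adjusted p = 0.0064), the AKT inhibitor gene Phlda3 (-0.82, adjusted p = 0.00714), Trp53 itself (-0.34, adjusted p = 0.0412) and its inhibitor gene Mdm4 (-0.40, adjusted p = 0.0433). Bax values were 8.19, 8.11 and 8.11 in shock and 8.70, 9.09 and 8.88 in female, and Bax and Phlda3 were also called on MAS5 values (adjusted p = 0.0402 and 0.0420). The DNA repair gene Xpc was higher in shock (0.68, adjusted p = 0.0151). Of these calls, Bax was kept in all 6 fits that left out an array and Phlda3 in 5, Xpc was lost without shock replicate 1 or 3, Mdm4 was kept in 1 fit and Trp53 in 0. Cdkn1a, the p21 gene and best-known p53 target, was at 0.33 and did not pass (adjusted p = 0.419).

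Of 20 Btg/Tob relatives and deadenylase genes, 4 were higher in shock and 1 in female, with a median of 0.24 (0.07 without female replicate 2). This is 25% called, beside 20.0% of all tested genes, 10.6% towards shock and 9.40% towards female. Higher in shock were Tob1 (0.70, adjusted p = 0.0229), a relative of the BTG proteins, the deadenylase subunit genes Cnot6 (0.45) and Cnot7 (0.35), the latter encoding the direct partner of BTG and TOB proteins, and Pan3 (0.37). Tob1 values were 9.90, 9.73 and 9.70 in shock and 9.39, 8.66 and 9.18 in female. The CCR4-NOT subunit gene Cnot3 was higher in female (-0.72, adjusted p = 0.00673). Without any 1 shock array none of the 4 was called, Cnot3 was lost without shock replicate 1, and on MAS5 values none of the list was. Pabpc1 was at 0.18 (adjusted p = 0.513), and whether its probe set detects the tagged transcript was not tested.

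Among 20 Ier relatives and partners, 3 were higher in shock and 1 in female, with a median of 0.07. These were the S6 kinase gene Rps6kb1 (0.48, adjusted p = 0.0284), the NF-kappaB inhibitor gene Nfkbia (0.50, adjusted p = 0.0338) and the heat shock gene Hspa1b (0.67, adjusted p = 0.0485) in shock, and the ERK1 gene Mapk3 (-0.65, adjusted p = 0.0151) in female. The 3 were lost without any 1 shock array, and Mapk3 without shock replicate 1 or 3. Hsf1 was at -0.15 (adjusted p = 0.244). Of 26 tested genes of the integrated stress response, which also hold the other growth-arrest and DNA-damage genes, 2 were higher in shock (Eif2ak3, 0.58, and Chac1, 0.41) and 3 higher in female (Atf5, -0.82, Ddit3, -0.37, and Nupr1, -0.36), with a median of 0.16. Ddit3, also known as Gadd153, had values of 9.43, 9.50 and 9.41 in shock and 9.61, 9.88 and 9.96 in female (adjusted p = 0.0463). Atf5 was lost without shock replicate 1, and the other 4 without any 1 shock array. Ppp1r15a, also known as Gadd34, lay the same way at -0.29 without passing (adjusted p = 0.0688).

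Of 39 tested rapid activity-response genes, 3 were higher in shock and 1 in female, 10.3% in all against 20.0% of all genes, with a median of 0.05. The clock gene Per1 was higher in female (-1.36, adjusted p = 0.00401), with values of 7.42, 7.48 and 7.32 in shock and 8.49, 9.06 and 8.74 in female. Nptx2, Rgs2 and Egr3 were higher in shock, at 0.71, 0.34 and 0.41 (adjusted p = 0.0382, 0.0427 and 0.0436). Each of these 3 was not called when any 1 shock array was left out. Fos, whose promoter drives the tag, was at 0.36 (adjusted p = 0.0844), Arc at 0.00 and Npas4 at -0.25 (adjusted p = 0.137).

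**Figure D5:**
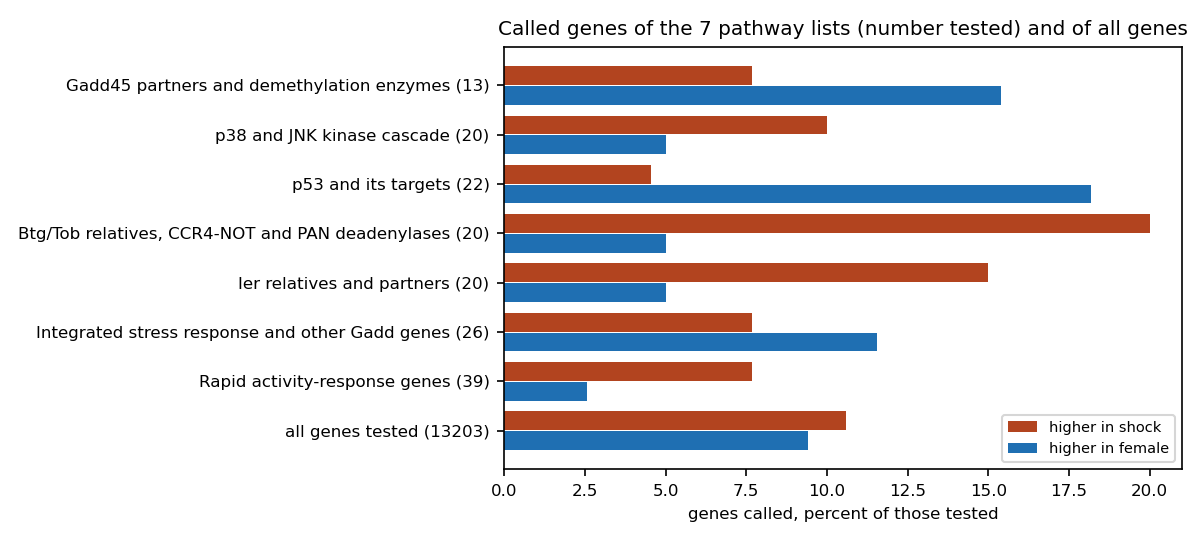
Genes called in each direction, as a percent of those tested (horizontal axis, number tested in brackets), in the 7 pathway lists and among all 13203 tested genes. The lists run from 10.3% called in all (rapid activity-response genes) to 25% (Btg/Tob relatives and deadenylases), around the 20.0% of all genes.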

How the data were processed

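RNA that came down with the antibody to the tag, from the basolateral amygdala, was measured on 6 arrays. The authors deposited RMA output (log2) and MAS5 output (linear intensity), per the submitters' processing notes, without versions, scaling target or genome build. Their comparison tables hold, per the file headers, group averages (log2), SDs, a signed fold (a score, negative where shock is higher), a p-value and an FDR.

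Of 45101 probe sets 64 controls were set apart. RMA values entered limma (version 3.58.1, R 4.3.3) with lmFit and eBayes and group as the only term, for 27022 probe sets above the 40th percentile of the mean (6.31). Adjusted p-values are limma's, 2-sided, over all probe sets tested, with a threshold of 0.05. MAS5 values entered as log2(value + 16), which understates changes of dim probe sets. A second fit tested each probe set minus its gene's representative, which was an _x_at probe set only where there was no other. The 5' to 3' signal used probe sets 500 to 20000 bases apart.

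Genes named are the members, up to 4 genes of each list with the smallest p or those needed to say which passed, and the 2 genes most like a member, leaving out predicted genes; those of Gadd45a are not reported here. Fos, Arc, Npas4, Cdkn1a, Hsf1, Ppp1r15a and Pabpc1 were named after their values were seen. The members, lists and tests were chosen with earlier results of these data known. Alternatives were other filters, MAS5 values, further normalization, a trended and robust prior, array weights, a replicate block, the covariate, other representatives and leaving out each array. The steps were tested on simulated data. The number of arrays limits precision.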

Additional observations from a re-analysis of the deposited data

How the results depend on the processing

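Gadd45g lay towards female under every alternative run, from -0.84 on log2(MAS5 + 1) values to -0.43 with the 5' to 3' covariate, and lost its call there (adjusted p = 0.0979 and 0.285), on log2(MAS5 + 16) values and without shock replicate 1. The Btg1 representative stayed towards shock, from 0.12 with the covariate to 0.69 without female replicate 1, and Btg1 was at 0.07 with the probe set nearest the 3' end. The number of called probe sets was 5614, and 1 with the 5' to 3' covariate, 543 and 277 on MAS5 values with 16 and 1 added, 8752 with array weights, and 321 to 6756 with 1 array left out. The 2821 called pairs of probe sets became 0 on MAS5 values with either offset, 1873 with a filter at the 60th percentile and 0 to 2740 with 1 array left out. The member genes called higher in shock, 1 in the reported fit, were 0 with the covariate, on MAS5 values with either offset, and with the most variable probe set, the mean of probe sets or the probe set nearest the 3' end, and 0 to 1 with 1 array left out. Those called higher in female, also 1, were 0 with the covariate and on MAS5 values with either offset. They were 0 to 2 with 1 array left out and 2 with array weights or the mean of probe sets. With the most variable probe set they were 3 (Gadd45b, Gadd45g and Btg2). Variability over the arrays of both groups favours probe sets that differ between groups. For Gadd45b and Btg2 this choice took 1450971_at and 1416250_at, both already called in the reported fit. For the mean and the most variable probe set, the share of all genes called is not given here. These higher counts therefore cannot be called particular to the members.

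Signs turned as follows, and the cause was not tested. Btg2 (0.05) was at -0.079 with the covariate, -0.52 and -0.56 on MAS5 values, -0.22 with the mean of probe sets and -0.49 with the most variable probe set, and ran from -0.017 to 0.14 with 1 array left out. Ier3 (0.01) was at -0.71 and -0.75 on MAS5 values and -0.0022 with array weights, and ran from -0.019 to 0.038. Ier5 (-0.09) was at 0.14 with the mean of probe sets and 0.36 with the most variable probe set or the one nearest the 3' end. Gadd45a (-0.08) ran from -0.18 to 0.049. Of the probe sets that are not representatives, the covariate turned Btg1 1426083_a_at from 0.47 to -0.17, Btg1 1442018_at from 0.07 to -0.05 and Ier5 1460009_at from 0.36 to -0.11, and MAS5 values turned Btg1 1442018_at to -0.20 and Ier5 1460009_at to -0.02. The Gadd45b representative (-0.28) was called with array weights (-0.39), with the mean of probe sets (-0.40) and, as 1450971_at, with the most variable probe set (-0.78).

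Whether replicate numbers pair the arrays is not settled with 3 arrays a group. Deviations from the group means correlated at 0.01, 0.21 and 0.15 for numbers 1, 2 and 3. Numbers 2 and 3 matched their own number best in the other group, and number 1 matched number 3. With the replicate block 7120 probe sets and 3984 pairs were called, and the member genes called were again Gadd45g at -0.67 (adjusted p = 0.00576) and Btg1 at 0.57 (0.0232), while the Btg1 probe set 1426083_a_at also passed (0.0415). Ier2 lay below the filter and has no value in most alternatives. With 3 arrays a group a p that misses the threshold does not show equal levels.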
